A study of Mus musculus with 18 samples.

Results

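Short-term hematopoietic stem cells (ST-HSC) of the mouse fetal liver were compared with multipotent progenitors (MPP) of the same organ over all genes measured. The comparison rests on 6 of the 18 arrays of the series, the 3 titled as fetal liver ST-HSC (lettered a, b and c) and the 3 titled as fetal liver MPP (a, b and c), and every difference is ST-HSC minus MPP. Both populations were taken from E13.5 embryos of strain C57Bl/6J and sorted among LSK cells, which lack lineage markers and carry Sca-1 and Kit, by staining for Cd150 and Cd48. The gates that separated them are not stated in the labels. Total RNA of each sample was hybridised to 1 Affymetrix Clariom S array, and a value is the deposited log2 signal of a gene, so that a difference of 1 is a change of 2-fold. For the question whether a difference belonged to the fetal liver, ST-HSC and MPP of the bone marrow of C57Bl/6J mice aged 3 to 12 months were used in the same way (3 arrays each). Long-term hematopoietic stem cells (LT-HSC) of the fetal liver (3 arrays) are given as levels beside the results. The titles, sources and cell type labels name no transgene, treatment or mutation in any of these groups. The free-text descriptions go against them: they speak of marrow transplants carrying a guide RNA, and name sgEzh2 for fetal liver MPP a, MPP b, ST-HSC a and LT-HSC a and sgLuc for the other arrays. The groups follow the titles. The labels do not say whether the replicates are separate embryos or animals; if they are not, the p-values reflect a spread that may be technical.

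Hematopoietic stem cells renew themselves and give rise to all blood cells. LT-HSC do so for the life of the animal, ST-HSC for a limited time, and MPP have lost most self-renewal but still give rise to many lineages. In the embryo these cells arise from endothelium and then settle and multiply in the fetal liver, before they move to the bone marrow. Cd150 marks the cells with the longest renewal, and Cd48 appears as they turn into progenitors.

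The 6 arrays were alike in scale. Their medians over 19505 genes lay between 7.78 and 7.81. Over these genes the ST-HSC arrays correlated with each other at 0.987 to 0.991, the MPP arrays at 0.993 to 0.994, and arrays of different populations at 0.980 to 0.984. Elsewhere in the series 4 arrays had a narrower spread of signals, LT-HSC b of the fetal liver and ST-HSC b, ST-HSC c and LT-HSC c of the bone marrow (the narrow arrays), and they enter the shared estimate of error. The number of arrays limits the precision, with a median standard error (SE) of 0.17 on a difference. The deposited table holds no detection calls, so the lowest signals cannot be told apart from background. In a bulk sample, fewer cells of a type and less RNA per cell cannot be told apart either.

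Pdzk1ip1, Igf2r, Fn1, Itsn1 and Rhag had the largest called increases in ST-HSC, and Pdzph1, Cd48, Pdgfrb, Adgrg3 and Ly86 the largest called decreases. Of 19505 genes, 441 (2.26%) passed an adjusted p of 0.05 (limma, Benjamini-Hochberg adjustment), with 309 (1.58%) higher and 132 (0.677%) lower in ST-HSC. Among them, 147 were at least 2-fold higher and 56 at least 2-fold lower. The median difference of all genes was -0.06, and 60.9% of genes lay below 0. For 439 of the called genes the 3 arrays of one population lay above the 3 of the other. The exceptions were Spopl and Wdr3, named here for that overlap after their values were seen. Separate arrays are thus nearly given for a called gene, and where stated below they add no support to its call. Among all genes the ST-HSC arrays lay all above those of MPP for 10.6% and all below for 15.9%. Leaving out 1 of the 6 arrays lowered the count to between 215 and 375, with 255 called without ST-HSC c, 279 without MPP a, 253 without MPP b and 215 without MPP c. Without the arrays described as sgEzh2, which leaves 1 MPP array and 2 ST-HSC arrays, 33 genes were called, and without ST-HSC b and c, whose description codes carry a further letter, 83.

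**Figure D1:**
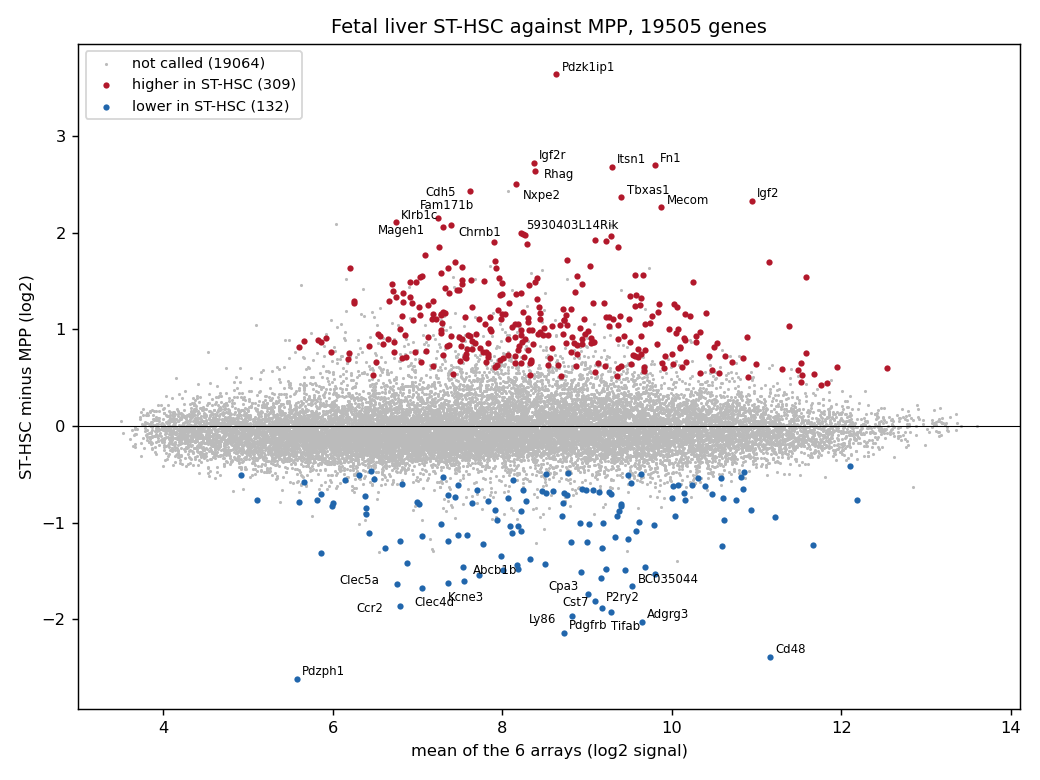
Difference of each of 19505 genes between ST-HSC and MPP of the fetal liver (y axis, log2) against its mean over the 6 arrays (x axis, log2 signal). Red points are the 309 genes called higher and blue points the 132 called lower at an adjusted p under 0.05, grey points are not called, and the 15 largest called differences in each direction carry their symbols; Pdzk1ip1 lies apart at the top with 3.65.

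The genes of the sort came first, as a check of the labels. Cd48, the progenitor marker, read 9.97, 10.01 and 9.90 on ST-HSC arrays a, b and c and 12.35 on each of the 3 MPP arrays. Slamf1, which encodes Cd150, read 7.43, 7.44 and 7.60 in ST-HSC and 6.43, 6.86 and 6.84 in MPP, with 9.12 to 9.47 in LT-HSC. ST-HSC and MPP both read lower than LT-HSC in Slamf1. Cd48 separated ST-HSC and MPP by -2.39 ± 0.30 (log2 difference ± SE, n = 3 arrays each, as in all that follows). Each SE comes from the limma fit of all groups of the series, so it also carries the spread of groups outside the comparison. For Cd48 the standard deviation was 0.057 in fetal liver ST-HSC and 0.003 in fetal liver MPP, but 0.954 in bone marrow LT-HSC. The cells were sorted on Cd150 and Cd48, so neither the Slamf1 nor the Cd48 difference is a finding. The call of Slamf1 (0.78 ± 0.18, adjusted p = 0.029) was lost in each of the 6 fits without 1 array, with an adjusted p of up to 0.170. Cd244a, a Cd48 receptor that also marks progenitors, was lower in ST-HSC by -1.51 ± 0.23 (adjusted p = 0.00115). Without the sgEzh2 arrays neither Cd48 nor Cd244a was called, although the cells were sorted on Cd48. That fit leaves 1 MPP array, and the fit without ST-HSC b and c leaves 1 ST-HSC array. A call lost there thus does not show that a difference is absent. Where these fits are not mentioned for a gene, its call may have been lost in them. Kit (0.19), Cd34 (-0.26) and Flt3 (0.00), the receptor of lymphoid-primed progenitors, did not pass. Flt3 read 9.22 to 9.72 in ST-HSC, 9.37 to 9.52 in MPP and 7.46 to 7.51 in LT-HSC, so the ranges of ST-HSC and MPP overlapped. Ly6a, which encodes Sca-1, was not analysed here.

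Pdzk1ip1, a small membrane protein whose expression marks stem cells in mouse marrow, had the largest difference of the comparison. It read 10.90, 10.18 and 10.30 on the ST-HSC arrays and 7.0, 6.66 and 6.78 on the MPP arrays, and 10.72 to 11.13 in LT-HSC. The ST-HSC and MPP arrays did not overlap, and the difference was 3.65 ± 0.28 (12.5-fold, adjusted p = 2.08e-06). Mecom, a zinc finger factor that stem cells need for self-renewal, read 10.60, 11.14 and 11.29 against 8.90, 8.89 and 8.44, a difference of 2.27 ± 0.26 (4.81-fold, adjusted p = 0.000102). Mecom was again at its ST-HSC level in LT-HSC, at 10.78 to 11.45. Both calls held in all 6 fits without 1 array, without the sgEzh2 arrays and without ST-HSC b and c.

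**Figure D2:**
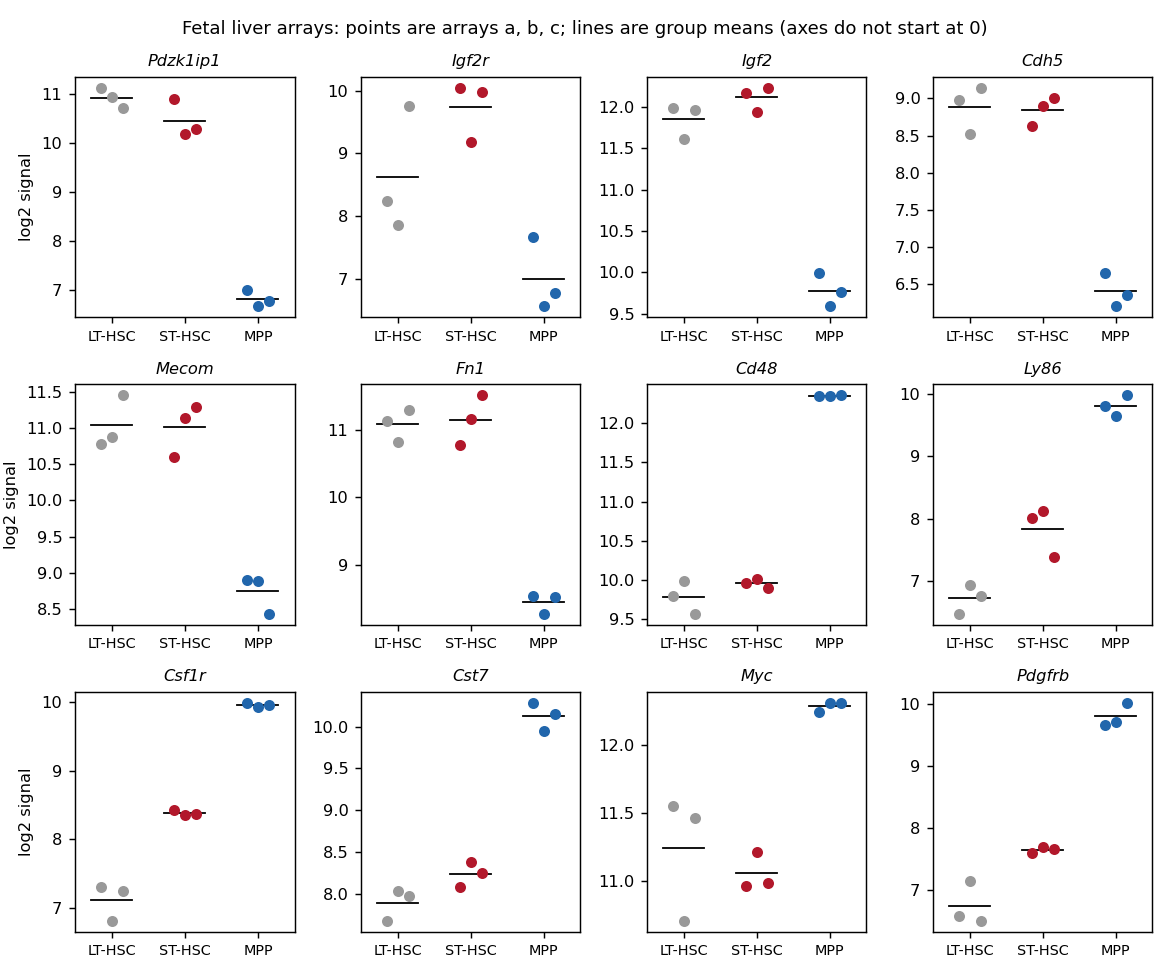
Log2 signal (y axes, which do not start at 0) of 12 genes on the fetal liver arrays of LT-HSC (grey), ST-HSC (red) and MPP (blue). Points are arrays a, b and c and lines are group means; in each of the 12 panels the ST-HSC and MPP points do not overlap, with Pdzk1ip1 to Fn1 higher in ST-HSC and Cd48 to Pdgfrb lower.

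Of 25 measured transcription factors of stem cells, 4 rose and none fell, against 1.58% and 0.677% of all genes, and their median difference was 0.46. Beside Mecom these were Myct1, a nuclear protein first found as a Myc target (1.36 ± 0.20), the homeobox factor Nkx2-3 (1.18 ± 0.17) and Hlf, a bZIP factor of quiescent stem cells (1.03 ± 0.21). Hlf read 11.79, 11.84 and 12.08 in ST-HSC and 10.96, 10.84 and 10.81 in MPP. Its call was lost without ST-HSC c, MPP b or MPP c, with an adjusted p of up to 0.0707. Meis1, a homeobox partner of Hox proteins, was higher on each ST-HSC array (10.41 to 10.90 against 9.70 to 9.83) but did not pass (0.89 ± 0.24, adjusted p = 0.0648). The 21 factors that did not pass, Meis1 among them, also included Runx1 (-0.23), Gata2 (0.15), Tal1 (0.03) and Prdm16 (-0.04). All 4 are known as regulators of stem cell formation or maintenance. Between 3 and 4 factors were called in the fits without 1 array, 1 without the sgEzh2 arrays, 2 without ST-HSC b and c and 9 in a fit of the 6 arrays.

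Surface and signature genes of stem cells were taken next. Of 34 measured, 12 rose and none fell, against 1.58% and 0.677% of all genes. Of the 34, 33 lay above 0 against 39.1% of all genes, and their median difference was 0.59. On 22 of them the 3 ST-HSC arrays lay above the 3 MPP arrays, as on 10.6% of all genes. Slamf1 is counted in the 12, the 33 and the 22, but the cells were sorted on its protein Cd150, so its part is not a finding. Behind Pdzk1ip1 came Tek, the angiopoietin receptor by which stem cells hold to their niche, with 9.06, 9.12 and 9.61 against 7.48, 6.98 and 7.38 (1.98 ± 0.36, adjusted p = 0.00472). Mllt3, a reader of acetylated histones in transcription elongation complexes, read 8.98, 9.43 and 9.29 against 7.42, 7.27 and 7.36, a difference of 1.89 ± 0.20. Ltb, the membrane anchor of the lymphotoxin complex, read 11.90, 12.03 and 12.05 against 10.41, 10.32 and 10.15, a difference of 1.70 ± 0.17. These 3 calls held in all 6 fits without 1 array, as did that of the guidance receptor Robo4 (1.56 ± 0.29). Procr, the receptor of protein C used to sort stem cells, was at 7.11, 8.15 and 7.47 against 6.43, 6.47 and 5.83 (1.34 ± 0.29), and its call was lost without ST-HSC b, ST-HSC c or MPP c. The remaining calls were Tie1 (1.26), Fgd5 (0.89), Emcn (0.88), Slamf1, Ifitm1 (0.62) and Ifitm3 (0.53). Emcn was called in none of the 6 fits without 1 array (adjusted p up to 0.143) and Tie1 in 1 (up to 0.163). Esam (0.51), Angpt1 (0.67), Vwf (0.61) and Ctnnal1 (0.90) were among the 22 that did not pass. Without 1 array, 5 to 8 of the list were called, with 6 without ST-HSC b, ST-HSC c, MPP a or MPP b and 5 without MPP c. Without the sgEzh2 arrays, and likewise without ST-HSC b and c, 3 were called.

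Part of this list is shared with the vessel wall, and endothelial genes were followed on their own. Of 20 measured, 7 rose and none fell, against 1.58% and 0.677% of all genes, with a median of 0.44. Cdh5, the cadherin of endothelial junctions, which blood stem cells of the embryo still carry, read 8.62, 8.90 and 9.0 in ST-HSC and 6.66, 6.20 and 6.36 in MPP. The difference was 2.44 ± 0.21 (5.41-fold, adjusted p = 3.05e-06), and it held in all 6 fits without 1 array. Ptprb, the phosphatase that acts on Tek, was at 6.20, 7.26 and 7.23 against 6.15, 5.23 and 5.43, so that ST-HSC a stood just above the highest MPP array. Its difference was 1.30 ± 0.25, and its call was lost without ST-HSC c or MPP b (adjusted p up to 0.0518). Tie1, the partner of Tek, Emcn, a sialomucin, and Kdr, a receptor of vascular endothelial growth factor (0.83 ± 0.21), completed the list with Tek and Robo4. Pecam1 (0.45), Eng (0.43), Flt1 (0.03), Plvap (-0.29), Sox17 (-0.40) and the liver sinusoid genes Lyve1 (0.25) and Stab2 (-0.06) did not pass. The mean of the 20 genes was 8.02 to 8.25 on the ST-HSC arrays, 7.56 to 7.60 on the MPP arrays and 8.12 to 8.22 in LT-HSC. Without 1 array 3 to 5 of the genes were called, with 3 without ST-HSC c or MPP b and 4 without MPP c. Without the sgEzh2 arrays 2 were called, and without ST-HSC b and c 1. How much endothelial cells in the sort add to this was not tested.

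A further 12 genes of vessel growth and guidance were picked from the called genes after their values were seen, so their count is no evidence. Ephb4, the receptor that marks veins, was at 8.01, 8.30 and 8.58 against 6.18, 6.86 and 6.74 (1.70 ± 0.27), and its ligand Efnb2 at 8.76, 9.13 and 8.62 against 7.64, 7.87 and 7.79 (1.07 ± 0.19). Dll4, a Notch ligand of arteries, was higher by 1.14 ± 0.16, the ephrin Efna1 by 1.13 ± 0.17 and the repellent Slit2, a ligand of Robo receptors, by 0.99 ± 0.20. Robo1, on the list of homing genes, rose by 0.73 ± 0.16. Ephb4 and its ligand Efnb2 were thus both higher in ST-HSC, and so were Slit2, Robo1 and Robo4. The calls of Slit2 (without ST-HSC c or MPP c, adjusted p up to 0.0597) and of Robo1 (without ST-HSC a, MPP a or MPP c, adjusted p up to 0.100) were lost in some fits.

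Hox genes encode homeobox factors, several of which act in stem cell self-renewal. Of 20 genes in the list of Hox genes and their partners, 3 rose and none fell, with a median difference of 0.37. Of all genes, 1.58% rose and 0.677% fell. Hoxa3 read 8.44, 8.28 and 8.89 in ST-HSC and 6.98, 7.03 and 7.10 in MPP, a difference of 1.5 ± 0.22 (2.83-fold, adjusted p = 0.000743). Hoxa5 followed with 9.23, 9.19 and 9.41 against 8.21, 8.24 and 8.09 (1.09 ± 0.26), and Hoxb3 with 8.98, 8.64 and 8.97 against 8.13, 8.29 and 8.27 (0.63 ± 0.15). Arrays of the populations did not overlap for any of the 3. None of the 20 was called without the sgEzh2 arrays or without ST-HSC b and c, and 6 were called in a fit of the 6 arrays. The call of Hoxa3 held in all 6 fits without 1 array, that of Hoxa5 in none (adjusted p up to 0.123) and that of Hoxb3 in 1, the fit without ST-HSC b (adjusted p up to 0.125). Hoxa6 (0.92), Hoxa10 (0.74) and Hoxb9 (0.72) did not pass, nor did Hoxb5 (0.03) or Hoxa4 (0.05). Some other Hox genes of the A and B clusters were not analysed here.

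Imprinted genes, of which 1 parental copy is silent, and genes known from fetal tissues held some of the largest differences. Of 19 measured, 5 rose and 1 fell, against 1.58% and 0.677% of all genes, with a median of 0.30. Igf2, the fetal growth factor, read 12.17, 11.94 and 12.23 in ST-HSC and 9.99, 9.59 and 9.76 in MPP, and 11.61 to 11.99 in LT-HSC. The difference was 2.33 ± 0.16 (5.03-fold, adjusted p = 5.78e-07), the smallest adjusted p among the 30 genes with the largest called differences. Igf2r, the receptor that takes Igf2 up for degradation, read 10.04, 9.18 and 9.98 against 7.68, 6.57 and 6.77, a difference of 2.73 ± 0.43 (6.63-fold, adjusted p = 0.0015). Growth factor and receptor were thus both higher in ST-HSC, and both calls held in all 6 fits without 1 array. Without the sgEzh2 arrays, and likewise without ST-HSC b and c, the call of Igf2 held and that of Igf2r was lost. In LT-HSC Igf2r was spread from 7.86 to 9.75, above each MPP array. Igf1, the related growth factor, named after its values were seen, read 10.17, 10.34 and 10.38 against 8.46, 8.51 and 8.36 (1.85 ± 0.16, adjusted p = 4.44e-06).

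The other imprinted genes that rose were Grb10, an adaptor that dampens insulin and Igf receptors (10.49, 10.16 and 10.64 against 9.17, 9.16 and 9.41), Sgce, a sarcoglycan (9.12, 9.06 and 8.92 against 7.99, 7.93 and 7.69), and Plagl1, a zinc finger factor (8.72, 8.47 and 8.65 against 7.40, 7.65 and 7.31). Their differences were 1.18 ± 0.28, 1.17 ± 0.30 and 1.16 ± 0.23. The call of Sgce held in none of the 6 fits without 1 array (adjusted p up to 0.176), that of Grb10 in 1, without ST-HSC b (up to 0.134), and that of Plagl1 in 5, being lost without MPP c (0.0591). Mest, another imprinted gene, did not pass (1.65 ± 0.52, adjusted p = 0.124): it read 10.29 on ST-HSC b but 8.01 and 7.76 on a and c, against 6.92 to 7.11 in MPP. Igf2bp3, a fetal RNA-binding protein that binds Igf2 transcripts, was lower in ST-HSC, with 9.47, 9.98 and 9.94 against 10.57, 10.42 and 10.49 (-0.70 ± 0.18), and was called in 1 of the 6 fits, without ST-HSC b. The fetal genes Lin28b (0.09), Hmga2 (0.02) and Dlk1 (-0.06) did not pass. Without 1 array 2 to 4 genes of the list were called higher, with 3 without ST-HSC a, ST-HSC c, MPP a or MPP b and 2 without MPP c. Without the sgEzh2 arrays 1 was called, and likewise without ST-HSC b and c. Zdbf2 (1.64 ± 0.35) and the imprinted antisense transcript Kcnq1ot1 (1.46 ± 0.34), both named after their values were seen, were also higher, and Kcnq1ot1 was called in 1 of the 6 fits, without ST-HSC b.

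Mir675, the microRNA gene inside the imprinted transcript H19, next to Igf2, was also named after its values were seen. It read 12.48, 12.16 and 12.41 in ST-HSC and 10.92, 10.85 and 10.65 in MPP, with 12.32 to 12.34 in LT-HSC, so that the arrays of ST-HSC and MPP were well apart. Its difference was 1.54 ± 0.16 (2.91-fold, adjusted p = 3.26e-05) and held in all 6 fits without 1 array. The array reads RNA from this stretch and does not tell the mature microRNA from its host transcript, and H19 itself was not analysed here. The gene's 2 mature microRNAs are shown because they are the sequences such RNA can yield; they are printed 5′ to 3′ from RefSeq with GRCm38.p6 coordinates, and capitals mark the seed, bases 2 to 8. The seeds of the 2 arms differ.
miR-675-5p, chr7:142577112-142577133, minus strand: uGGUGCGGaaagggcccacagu
miR-675-3p, chr7:142577078-142577099, minus strand: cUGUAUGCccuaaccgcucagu

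Interferon response genes are switched on through Stat and Irf factors to resist viruses. Of 40 measured, 9 rose and none fell, against 1.58% and 0.677% of all genes, 35 lay above 0, and the median was 0.39. Irf7, the factor that amplifies the response, read 9.06, 9.20 and 8.74 in ST-HSC and 7.96, 8.04 and 7.95 in MPP (1.02 ± 0.22, adjusted p = 0.0162). Iigp1, a GTPase that attacks vacuoles of intracellular parasites, read 7.61, 7.31 and 6.96 against 6.41, 6.08 and 6.38 (1.0 ± 0.22). Oasl2, a relative of the RNA-sensing oligoadenylate synthetases, read 8.17, 8.37 and 8.42 against 7.69, 7.59 and 7.63 (0.69 ± 0.13, adjusted p = 0.00615). The arrays of the populations did not overlap for these 3 genes. The other calls were Oasl1 (0.75), Xaf1 (0.64), the RNA helicase Dhx58 (0.62), Trim30a (0.55), the membrane protein Ifitm3 (0.53) and Irf9, a subunit of the interferon-activated factor (0.52). Classic members did not pass: Isg15 was at 0.47, Ifit1 at 0.50, Mx1 at -0.29 and Usp18 at -0.09. Stat2 was just beyond the threshold (0.62 ± 0.17, adjusted p = 0.065).

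The mean of the 40 genes was 8.57 to 8.68 on the ST-HSC arrays, 8.25 to 8.32 on the MPP arrays and 8.21 to 8.29 in LT-HSC. Irf7, too, was lower in LT-HSC (7.37 to 8.17) than on any ST-HSC array, and Oasl1 was at 6.68 to 7.15 in LT-HSC against 7.67 to 8.09 in ST-HSC. Levels in LT-HSC are given side by side and were not tested. The count was 6 without ST-HSC a, 5 without ST-HSC c, 3 without ST-HSC b or MPP a and 2 without MPP b or MPP c. It was 0 without the sgEzh2 arrays and 0 without ST-HSC b and c, so that in those fits each of the 9 calls was lost, that of Oasl2 included. In the fits without 1 array the call of Oasl2 held in all 6 fits, those of Irf7 (without ST-HSC c), Oasl1 (without ST-HSC a) and Xaf1 (without ST-HSC a) in 1, and that of Iigp1 in 2, without ST-HSC c or MPP a. A further 13 interferon targets were picked from the called genes after their values were seen, among them Ifit1bl1 (7.70, 7.61 and 7.86 against 6.31, 6.36 and 6.03; 1.49 ± 0.17), Trim30d (1.03 ± 0.12) and Oas1g (10.69, 10.45 and 10.39 against 9.80, 9.77 and 9.51; 0.82 ± 0.13), whose calls held in all 6 fits. Among the others, the calls of Gvin1, Trim12a and Trim30b held in all 6 fits and that of Phf11b in 5. Those of Tgtp2 and Sp100 held in 2, those of Herc6, Samd9l and Ube2l6 in 1 and that of Parp12 in none. Trim30, Oas and Ifit genes have close copies, and the deposited values do not show how probes shared between copies were treated.

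The interferon-activated factor binds DNA at GAAA, any 2 bases and GAAA again. These letters were searched on both strands, overlapping matches included, in the 250 bases before the start site of each gene with an entry in RefSeq's promoter table (GRCm38.p6). They were present before 15 of 29 genes of the interferon list with an entry (51.7%), 544 of 15691 tested genes (3.47%), 12 of 239 genes called higher (5.02%) and 5 of 106 called lower (4.72%). Of the 7 called list members with an entry, 1 held them, Trim30a. The stretches nearest the start site are shown for Trim30a, for Oas1g, and for Isg15 as a classic target whose difference did not pass; each is 60 bases, on the gene's strand, with matches in capitals. A match is a description of the letters and not a measured site, and a promoter without one says nothing of the factor. A further 6 patterns, the letters of GATA, PU.1 (2 lengths), ETS (2 lengths) and C/EBP factors, were searched in the same stretches for the other lists and are not described.
Trim30a, chr7:104465195-104465254, minus strand: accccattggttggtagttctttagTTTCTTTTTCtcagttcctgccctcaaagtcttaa
Oas1g, chr5:120887614-120887673, minus strand: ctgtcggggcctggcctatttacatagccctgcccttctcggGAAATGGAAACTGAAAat
Isg15, chr4:156200850-156200909, minus strand: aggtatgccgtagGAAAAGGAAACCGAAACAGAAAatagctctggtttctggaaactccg

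Erythroid genes had the highest median of the 33 lists, at 0.83. Of 25 measured, 3 rose and none fell, against 1.58% and 0.677% of all genes, and 24 lay above 0. The count of 3 depended on the fit, with 11 in a fit of the 6 arrays alone, 12 without the 4 narrow arrays, 8 with array weights, and 0 without the sgEzh2 arrays or without ST-HSC b and c. Rhag, a channel of the red cell membrane, read 9.91, 10.55 and 8.67 in ST-HSC and 7.91, 6.62 and 6.66 in MPP (2.65 ± 0.55, adjusted p = 0.0125). Epor, the erythropoietin receptor, read 9.0, 9.05 and 8.46 against 7.81, 7.45 and 7.71 (1.18 ± 0.22, adjusted p = 0.00524), and Car2, a carbonic anhydrase, 10.79, 11.08 and 10.88 against 10.10, 10.12 and 10.07 (0.82 ± 0.14). The arrays of ST-HSC and MPP were separate for all 3, with ST-HSC c lowest for Rhag and Epor. The calls of Epor and Car2 held in all 6 fits without 1 array, while that of Rhag was lost without ST-HSC a, ST-HSC b, MPP b or MPP c (adjusted p up to 0.0765). Cldn13 (2.08 ± 0.63), Epb42 (1.58 ± 0.63) and Ank1 (1.53 ± 0.62), proteins of the red cell membrane, had large differences that did not pass. The erythroid factor Klf1 was at 1.20 ± 0.41 (adjusted p = 0.165) and Gata1 at -0.01 ± 0.12.

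The mean of the 25 erythroid genes was 8.80, 9.30 and 8.19 on ST-HSC a, b and c, 7.66 to 8.02 on the MPP arrays and 9.28, 8.04 and 9.98 on LT-HSC a, b and c. The spread within ST-HSC was thus wider than the gap between ST-HSC c and the highest MPP array. Hepatocyte genes had the same order within ST-HSC, with a mean of 7.89, 8.24 and 7.49 on ST-HSC a, b and c, 7.70 to 7.88 on the MPP arrays and 7.67 to 8.85 in LT-HSC. None of the 25 hepatocyte genes was called, and 2 passed an unadjusted p of 0.05, both lower. Nxpe2 (10.04, 9.75 and 8.46 against 7.47, 6.35 and 6.91; 2.51 ± 0.56) and Tfr2 (1.21 ± 0.28), a transferrin receptor of liver and erythroid cells named after its values were seen, were also called, Tfr2 in none of the 6 fits without 1 array (adjusted p up to 0.116). Nxpe2 was lowest on ST-HSC c, like Rhag. Its call was lost in 4 of the 6 fits, those without ST-HSC a, ST-HSC b, MPP b or MPP c. The part of erythroid cells or of their RNA in these results was not tested.

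**Figure D3:**
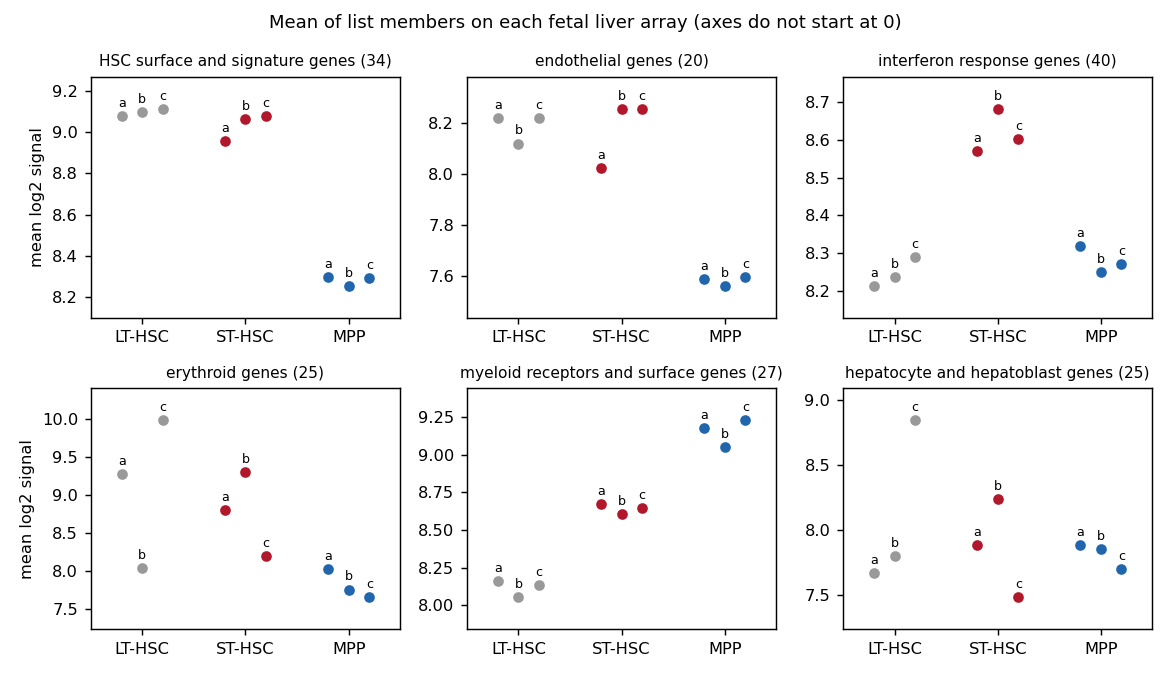
Mean log2 signal (y axes, which do not start at 0) of the measured members of 6 gene lists on fetal liver arrays a, b and c of LT-HSC (grey), ST-HSC (red) and MPP (blue), with the number of genes in brackets. The interferon mean is 8.57 to 8.68 in ST-HSC and at most 8.32 in MPP and LT-HSC, while the erythroid mean spreads from 8.19 to 9.30 within ST-HSC.

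On the side of MPP stood genes of the myeloid lineage. Of 27 measured myeloid receptors and surface genes, 6 fell in ST-HSC and none rose, against 0.677% and 1.58% of all genes, with a median of -0.45. The count was 3 without ST-HSC c or MPP c, 0 without the sgEzh2 arrays, 1 without ST-HSC b and c, 11 in a fit of the 6 arrays or with array weights, and 13 without the 4 narrow arrays. On 15 of them the 3 ST-HSC arrays lay below the 3 MPP arrays, as on 15.9% of all genes. Csf1r, the receptor of the macrophage growth factor, read 8.42, 8.35 and 8.37 in ST-HSC and 10.00, 9.93 and 9.96 in MPP, a difference of -1.58 ± 0.29 (adjusted p = 0.0053). Ly86, a partner of a Toll-like receptor relative on myeloid and B cells, read 8.01, 8.12 and 7.39 against 9.80, 9.65 and 9.97 (-1.96 ± 0.40, adjusted p = 0.0113). Siglecf, a sialic acid receptor of eosinophils, read 7.53, 6.85 and 7.42 against 8.82, 8.48 and 8.98 (-1.49 ± 0.26). No array of one population reached the range of the other for these genes. In LT-HSC the levels were lower again, at 6.81 to 7.30 for Csf1r and 6.49 to 6.95 for Ly86. The other calls were the chemokine receptors Ccr2 (-1.87 ± 0.46) and Cx3cr1 (-1.01 ± 0.19) and the antibody receptor Fcgr3 (-1.53 ± 0.36). The calls of Csf1r, Siglecf and Cx3cr1 held in all 6 fits without 1 array, that of Ly86 was lost without ST-HSC c or MPP c (adjusted p up to 0.0721), that of Fcgr3 held only without MPP b, and that of Ccr2 was lost in each fit (up to 0.165). Csf3r (-0.24), Csf2ra (-0.04), Itgam (0.25) and Tlr4 (0.13) did not pass.

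The list for primary granules, which neutrophil and monocyte precursors fill early, gave a like count. Not all of its members are granule contents, and Calr among its calls is a chaperone of the endoplasmic reticulum, counted again further on. Of 24 measured, 5 fell and none rose, against 0.677% and 1.58% of all genes, with a median of -0.52. The count was 3 without any 1 array other than ST-HSC b, 0 without the sgEzh2 arrays, 1 without ST-HSC b and c and 9 in a fit of the 6 arrays. Cst7, an inhibitor of granule cathepsins, read 8.08, 8.38 and 8.25 in ST-HSC and 10.29, 9.94 and 10.15 in MPP (-1.89 ± 0.25, 3.7-fold, adjusted p = 0.000312). Nkg7, a granule membrane protein, read 8.84, 9.13 and 8.92 against 10.39, 10.25 and 10.63 (-1.46 ± 0.22), and Serpinb1a, an inhibitor of neutrophil elastase, 10.07, 10.00 and 9.87 against 11.20, 11.16 and 11.30 (-1.24 ± 0.23). These 3 calls held in all 6 fits without 1 array, whereas those of Plac8 (-0.77 ± 0.18) and Calr (-0.54 ± 0.13) held in 0 and in 1, without ST-HSC b. The granule enzymes themselves did not pass: Mpo, the peroxidase, was at 12.30 to 12.78 against 13.09 to 13.21 (-0.64 ± 0.20, adjusted p = 0.135), Ctsg at -1.30 ± 0.41 and Elane at -0.04 ± 0.32, with MPP b at 9.98 and MPP a at 11.62. Of 15 genes of later granules, 1 rose, Padi4 (0.95 ± 0.23), and none fell; its call held in 1 of the 6 fits, without ST-HSC b.

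Of 15 transcription factors of myeloid progenitors, 2 fell and none rose, with a median of -0.21, and 0 fell without the sgEzh2 arrays or without ST-HSC b and c. Among all genes 0.677% fell and 1.58% rose. Myc, the growth regulator, read 10.96, 11.22 and 10.99 in ST-HSC and 12.25, 12.31 and 12.31 in MPP (-1.23 ± 0.19, 2.35-fold, adjusted p = 0.00115). The call of Myc held in all 6 fits without 1 array. Irf8, a factor of monocytes and dendritic cells, read 7.88, 7.87 and 7.93 against 8.75, 8.61 and 8.63 (-0.77 ± 0.16), and was not called without MPP a (adjusted p = 0.0638). Cebpa, which opens the granulocyte and monocyte path, was at 7.18 to 7.81 against 8.06 to 8.18 and did not pass (-0.54 ± 0.18, adjusted p = 0.155), nor did Cebpe (-0.86 ± 0.37) or Gfi1 (0.40 ± 0.15). Tifab, an inhibitor of Traf6 signalling, read 8.21, 8.51 and 8.23 against 10.24, 10.19 and 10.30 (-1.92 ± 0.24, adjusted p = 0.00021). Adgrg3, an adhesion receptor of granulocytes, read 8.74, 8.32 and 8.82 against 10.60, 10.72 and 10.66 (-2.03 ± 0.24, adjusted p = 0.000117). Both were among the 15 largest decreases, and both were called in all 6 fits. The lectin receptors of myeloid cells Clec4d (-1.68 ± 0.39) and Clec5a (-1.63 ± 0.42), also among them, were called in 0 and in 1 of the fits, the latter without MPP b.

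**Figure D4:**
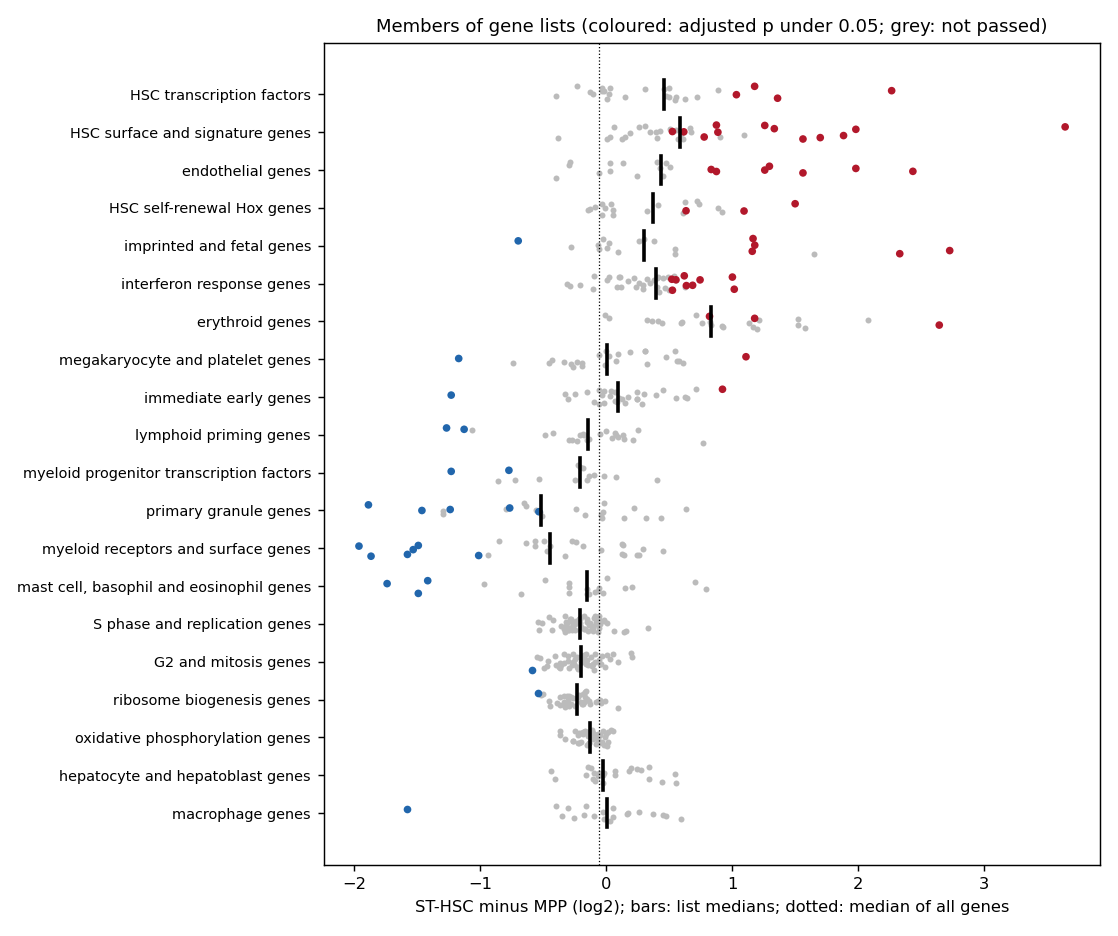
ST-HSC minus MPP difference (x axis, log2) of each measured member of 20 gene lists (rows). Red and blue points passed an adjusted p of 0.05, grey points did not, black bars are list medians and the dotted line is the median of all genes at -0.06; the medians of the stem cell, endothelial, interferon and erythroid lists lie to its right and those of the primary granule and myeloid receptor lists to its left.

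Lymphoid genes were lower in ST-HSC for a few members. Of 24 genes of lymphoid priming, 2 fell and none rose, against 0.677% and 1.58% of all genes, with a median of -0.15. Ebf1, the factor that starts the B lineage, read 8.59, 8.67 and 8.38 in ST-HSC and 10.02, 10.01 and 9.42 in MPP (-1.27 ± 0.21, adjusted p = 0.00199). Its call held in all 6 fits without 1 array, but not without the sgEzh2 arrays or without ST-HSC b and c. Rag2, part of the recombinase of antigen receptor genes, read 7.08, 6.99 and 6.98 against 8.35, 7.97 and 8.13 (-1.13 ± 0.25), and held in 1 fit, without MPP b. Il7r, the interleukin-7 receptor, was at 7.72 to 8.43 against 8.85 to 9.23 and did not pass (-1.06 ± 0.29, adjusted p = 0.0628). Dntt (-0.23), Notch1 (-0.14) and Ikzf1 (0.07) did not pass either. Of 15 B cell genes Ebf1 was the 1 called, and Pax5 (-0.18) and Cd79a (-0.19) were not.

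Among mast cell, basophil and eosinophil genes 3 of 21 fell, against 0.677% of all genes, and 0 did so without the sgEzh2 arrays or without ST-HSC b and c. Cpa3, the mast cell carboxypeptidase, read 8.26, 8.21 and 7.96 against 9.57, 9.75 and 10.33 (-1.74 ± 0.39), and held in 1 of the fits without 1 array, that without MPP a. Il5ra, the receptor of the eosinophil growth factor, read 6.59, 5.83 and 6.09 against 7.60, 7.22 and 7.94 (-1.42 ± 0.26), and held in all 6, as did Siglecf. Of 26 megakaryocyte and platelet genes, Selp, the platelet adhesion molecule, rose (10.09, 9.82 and 10.25 against 8.90, 8.79 and 9.15; 1.11 ± 0.15) and Plek, a substrate of protein kinase C in platelets, fell (8.77, 8.72 and 9.20 against 10.08, 10.01 and 10.11; -1.17 ± 0.16), while Pf4 (0.56), Vwf (0.61) and Itgb3 (-0.74) did not pass. Of 35 cytokine receptors, Epor rose and Csf1r and Met, the receptor of hepatocyte growth factor (-1.32 ± 0.34), fell. Met was called in 1 of the 6 fits (adjusted p up to 0.257). Beside the counts of these lists, 1.58% of all genes were called higher and 0.677% lower.

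Markers of other cells that a fetal liver sort could hold gave some calls, against 1.58% higher and 0.677% lower of all genes. Of stromal genes 13.0% rose and 4.35% fell. T and NK cell genes had 5.56% higher and 5.56% lower, and macrophage genes 5.0% lower and none higher. The part of such cells in these results was not tested. Of 20 macrophage genes, Csf1r was called and Adgre1 (-0.40) and Mrc1 (0.37) were not, with means of 6.59 to 6.69 in ST-HSC and 6.63 to 6.71 in MPP. Of 18 T and NK cell genes, Klrb1c rose and Nkg7 fell. Klrb1c, which encodes the NK cell antigen NK1.1, read 7.88, 7.86 and 7.66 against 5.81, 5.49 and 5.76 (2.11 ± 0.17, adjusted p = 2.79e-06), and 7.98 to 8.32 in LT-HSC. Of 23 stromal genes 3 rose and 1 fell. Fn1, the matrix protein fibronectin, read 10.77, 11.16 and 11.51 against 8.54, 8.28 and 8.53 (2.70 ± 0.33, 6.5-fold, adjusted p = 0.000155), Postn, another matrix protein, 9.97, 9.66 and 9.97 against 8.49, 7.87 and 8.27 (1.66 ± 0.22), and Igfbp5, which binds Igf, 7.05, 8.04 and 7.89 against 6.34, 6.16 and 6.00 (1.49 ± 0.32). Pdgfrb, the receptor of platelet-derived growth factor on stromal cells, went the other way, with 7.60, 7.70 and 7.66 against 9.66, 9.71 and 10.02 (-2.14 ± 0.18, adjusted p = 3.05e-06). The 4 stromal calls held in all 6 fits without 1 array but for Igfbp5 (2 of 6, adjusted p up to 0.0867). Without the sgEzh2 arrays the call of Pdgfrb held, and those of Fn1, Postn and Igfbp5 were lost. The collagens and other stromal genes did not pass, for example Col4a2 (0.39) and Sparc (0.42), and the stromal mean was 7.26 to 7.37 in ST-HSC and 7.11 to 7.15 in MPP. Of 3 Y-linked genes Kdm5d was called (7.63, 8.09 and 7.64 against 6.98, 7.24 and 6.64; 0.84 ± 0.20; held in 1 of 6 fits, without MPP b). Uty (0.39) and Eif2s3y (0.09) were not. Whether the sex of the embryos differed between samples is not stated, and its part in the results was not tested.

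Differences of most cell cycle genes were small. Of 60 S phase and replication genes none was called by limma, but 15 passed an unadjusted p of 0.05 as lower and 0 as higher, against 6.68% and 6.69% of all genes. Of the 60, 55 lay below 0, against 60.9% of all genes, with a median of -0.20. On 20 of them the 3 ST-HSC arrays lay below the 3 MPP arrays, as on 15.9% of all genes. Fen1 was at 9.77, 10.36 and 9.87 in ST-HSC and 10.60, 10.47 and 10.53 in MPP (-0.53 ± 0.17, adjusted p = 0.122). Of 55 G2 and mitosis genes 1 fell, Dlgap5 (-0.59 ± 0.15; called in 1 of 6 fits, without ST-HSC b), with the same median of -0.20. In bone marrow, where 6.1% of genes were called, 1.31% higher and 4.79% lower, 31 of the 60 S phase genes and 42 of the 55 mitosis genes were called lower in ST-HSC, with medians of -0.56 and -0.93. Of the 36 genes (0.185%) that the interaction called, described further on, none is on either list, and with so small a share nothing about these lists is read from it. Of 13 G1 cyclins and kinases 2 fell in fetal liver, Myc and Cdk6, and none rose. Cdk6, the kinase that drives exit from quiescence, read 10.05, 10.71 and 10.73 against 11.43, 11.31 and 11.37 (-0.87 ± 0.16, adjusted p = 0.00615) and held in all 6 fits. Of the inhibitors, Txnip, which restrains glucose uptake, rose (12.81, 12.76 and 12.95 against 12.31, 12.15 and 12.28; 0.60 ± 0.12) and Cdkn1a, the p53 target p21, fell (7.98, 8.62 and 8.64 against 9.49, 9.24 and 9.52; -1.01 ± 0.22). Cdkn1a held in 3 of the 6 fits, without ST-HSC b, ST-HSC c or MPP b, and Txnip in 4, being lost without ST-HSC c or MPP b. Cdkn1c (0.01), an inhibitor of quiescent stem cells, did not pass. In fetal liver 1.58% of all genes were called higher and 0.677% lower.

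Growth and energy genes shifted by small amounts, and of all genes 60.9% lay below 0. Of 42 ribosome biogenesis genes 41 lay below 0 with a median of -0.24, and 1 was called, Nolc1 (-0.54 ± 0.14, adjusted p = 0.0499), in none of the fits without 1 array. None of 47 genes of oxidative phosphorylation was called by limma (0 and 2 at an unadjusted p of 0.05 as higher and lower), with 42 below 0 and a median of -0.13. None of 26 glycolysis genes was called (1 and 4 at an unadjusted p of 0.05), and none of 24 polycomb and DNA methylation genes (1 and 1). The immediate early gene Dusp1, a phosphatase that ends MAP kinase signalling, rose (11.42, 11.06 and 11.55 against 10.29, 10.38 and 10.59; 0.92 ± 0.17, all 6 fits), whereas Egr1 (0.56) and Nr4a2 (0.64) did not pass. Of 21 antigen presentation genes H2-DMa, which loads peptides onto class II molecules, fell (-0.74 ± 0.15, called in 3 of the 6 fits). Beside the counts of these lists, 1.58% of all genes were called higher and 0.677% lower.

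Several of the largest differences fell outside these lists. Itsn1, a scaffold of endocytosis, read 10.53, 10.71 and 10.68 in ST-HSC and 7.56, 7.85 and 8.44 in MPP (2.69 ± 0.31, 6.43-fold, adjusted p = 0.000101). Tbxas1, the synthase of the platelet mediator thromboxane, read 10.78, 10.29 and 10.71 against 8.56, 7.81 and 8.30 (2.37 ± 0.24). Fam171b (2.15 ± 0.29), Chrnb1, a subunit of the muscle acetylcholine receptor (2.08 ± 0.36), Mageh1 (2.06 ± 0.26) and the transcript 5930403L14Rik (2.00 ± 0.26) completed the 15 largest increases, and each was called in all 6 fits. Lower in ST-HSC was first Pdzph1, a protein with PDZ and PH domains, at 4.29, 4.28 and 4.24 against 6.68, 6.72 and 7.26 (-2.62 ± 0.24, 6.14-fold, adjusted p = 5.45e-06). Its ST-HSC signals were low, and no detection call tells them from background. P2ry2, a receptor of extracellular nucleotides, read 8.16, 8.29 and 8.13 against 10.00, 10.03 and 9.98 (-1.81 ± 0.17), and Abcb1b, an efflux pump, 6.72, 6.91 and 6.61 against 8.52, 8.18 and 8.36 (-1.60 ± 0.20). BC035044 (-1.66 ± 0.25) was called in all 6 fits like these 3, while Kcne3 (-1.63 ± 0.40), with ST-HSC b at 7.75 close to the lowest MPP array at 7.96, was called in 1, without ST-HSC b. Of the 30 genes with the largest called differences, 22 were called in all 6 fits without 1 array, 11 without the sgEzh2 arrays and 18 without ST-HSC b and c, and each of the 30 kept its direction in both of the latter fits.

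Whether these differences belonged to the fetal liver was asked with the interaction, the fetal liver difference minus the bone marrow difference, which share no array. The fetal liver came from E13.5 embryos and the bone marrow from mice aged 3 to 12 months. Organ and age thus cannot be told apart in the interaction. It called 36 genes (0.185%), 28 of them with a higher difference in the fetal liver and 8 with a lower one, and 17 of the 36 were also called within the fetal liver. Bone marrow ST-HSC b and c stood apart, with interquartile ranges of 2.59 and 2.62 (log2) against 2.93 to 3.15 on the other bone marrow ST-HSC and MPP arrays. Without them and the narrow LT-HSC arrays of both organs the interaction called 94 genes, and without bone marrow ST-HSC a, which leaves b and c as the ST-HSC arrays of that organ, 384. The part of this spread in the bone marrow values was not tested. For the other 424 genes called in the fetal liver the interaction did not pass, which does not show that the organs are alike. Of the genes higher in fetal liver ST-HSC, 54 were also called higher in bone marrow ST-HSC, which is 17.5% of the fetal liver and 21.2% of the bone marrow calls; of the lower genes 66 were shared, 50.0% of the fetal liver and 7.06% of the bone marrow calls, and 3 genes were called in opposite directions.

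For Igf2, against 2.33 in fetal liver, bone marrow ST-HSC read 8.71, 8.91 and 8.78 and MPP 8.79, 8.28 and 8.53, a difference of 0.27 ± 0.16, and the interaction was 2.06 ± 0.23 (adjusted p = 0.000435). Cdh5 read 6.12, 5.96 and 6.09 in bone marrow ST-HSC and 6.04, 5.24 and 6.02 in MPP, with an interaction of 2.14 ± 0.30 (adjusted p = 0.00442). Klrb1c differed by -0.23 ± 0.17 in bone marrow, with an interaction of 2.34 ± 0.25. Selp was called in opposite directions, with 9.92, 9.98 and 9.59 against 10.48, 10.61 and 10.74 in bone marrow (-0.78 ± 0.15) and an interaction of 1.89 ± 0.22. Rasgrp3, an activator of Ras, likewise was 9.17, 9.76 and 10.03 against 8.32, 7.51 and 8.48 in fetal liver (1.55 ± 0.25) and 6.57, 6.07 and 6.27 against 7.48, 6.85 and 7.34 in bone marrow (-0.92 ± 0.25). These 5 interactions were called in each of 12 fits that left out 1 array of the 4 groups. Without the sgEzh2 arrays none of them passed (1.67 to 2.33, adjusted p 0.118 to 0.203), and the interaction called 0 genes by limma, with 1013 at an unadjusted p under 0.05. Pdzk1ip1 was higher in ST-HSC of both organs, by 1.49 ± 0.28 in bone marrow, and its interaction (2.15 ± 0.40, adjusted p = 0.034) was called in 1 of the 12 fits. For Fn1 (2.29 ± 0.47, adjusted p = 0.0558) and Igf2r (2.06 ± 0.61, adjusted p = 0.195) the interaction did not pass. None of the 40 interferon, 20 Hox or 27 myeloid receptor genes was among the 0.185% called, a share at which none would be no result about these lists. Irf7 differed by -0.16 ± 0.22 in bone marrow (interaction adjusted p = 0.133).

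**Figure D5:**
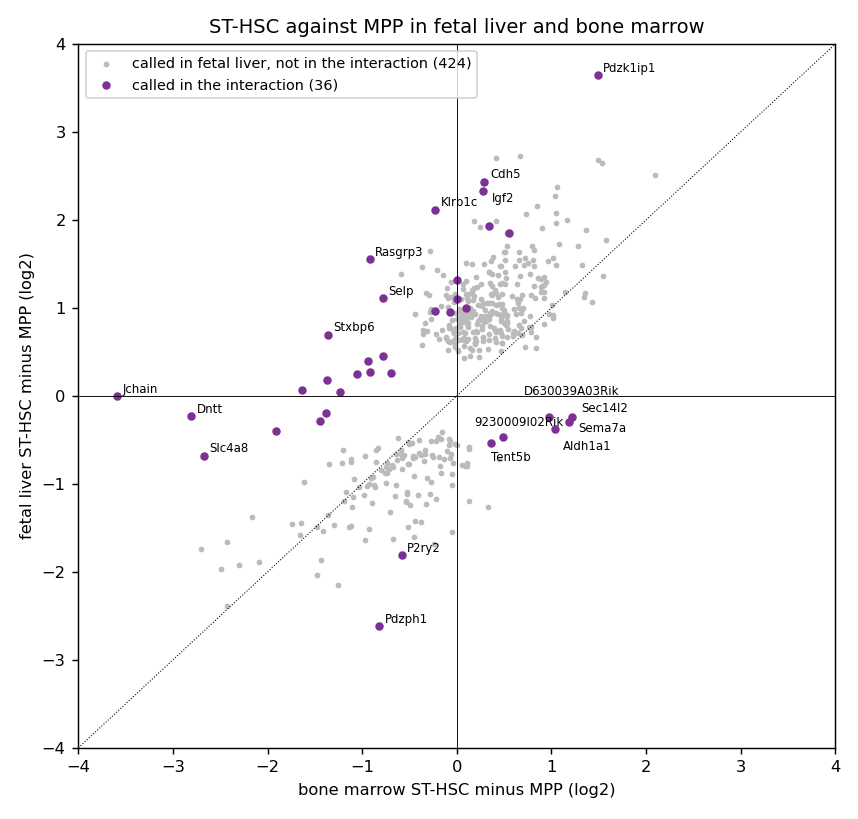
ST-HSC minus MPP difference in fetal liver (y axis, log2) against that in bone marrow (x axis, log2) for the 424 genes called in fetal liver and not in the interaction (grey) and the 36 genes called in the interaction (purple); the dotted line marks equal differences. Igf2, Cdh5 and Klrb1c lie high above the line with bone marrow values near 0, and Jchain and Dntt lie far to the left with fetal liver values near 0.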

How the data were processed

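The 18 samples each gave 1 Affymetrix Clariom S array of RNA from sorted mouse cells, for which 2 ng were amplified with 10 PCR cycles before in vitro transcription, per the labels' protocols. The authors deposited log2 values for each probe set, computed in R 3.5.01 with oligo, per the submitters' processing notes. How background was corrected and arrays were normalized was not given in the sources used here.

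Of 22203 probe sets, 19572 had 1 gene symbol, each matched to RefSeq GRCm38.p6 and used for names, and 2631 had none and were left out. The brightest probe set stood for a gene, which set 67 aside and left 19505 genes. Group means of all 6 groups were fitted with limma 3.58.1 in R 4.3.3 (lmFit, eBayes), with no covariate, and p-values were adjusted over all genes by Benjamini-Hochberg; the code was checked on simulated data.

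The comparison and the 33 gene lists were chosen with earlier results of these data known, and lists are described by counts and medians with no set test. Genes named are the 15 largest called differences in each direction whose arrays did not overlap, the 10 largest interactions in each direction, up to 6 members of a list with the largest absolute differences, members that explain a count of 5 or fewer, and the sort markers; other names are given as chosen after their values were seen, or as list members that did not pass. Alternatives are described in the closing section.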

Additional observations from a re-analysis of the deposited data

Results flagged for a closer look

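The difference between ST-HSC and MPP was not the same in fetal liver and bone marrow for 18 named genes, by the interaction term of the limma fit at an adjusted p under 0.05. Values are the interaction on the log2 scale, the fetal liver difference minus the bone marrow difference. Fetal liver ST-HSC stood higher, against their MPP, than bone marrow ST-HSC for Klrb1c (2.34), Pdzk1ip1 (2.15), Cdh5 (2.14), Igf2 (2.06), Stxbp6 (2.06) and Selp (1.89), with a call in fetal liver in each case, and for Rasgrp3 (2.47), which was higher in fetal liver ST-HSC and lower in bone marrow ST-HSC. Stxbp6 was likewise higher in fetal liver ST-HSC (0.70 ± 0.17) and lower in bone marrow ST-HSC (-1.36 ± 0.17).

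For 3 genes the difference lay in bone marrow. Jchain, which joins antibody subunits (3.59), read 5.23 to 5.94 in fetal liver ST-HSC and 5.32 to 6.10 in fetal liver MPP, but 6.96 to 7.70 and 10.55 to 11.23 in those of bone marrow. Dntt, the polymerase of early lymphoid cells (2.58), read 4.79 to 5.37 over the 6 fetal liver arrays and 8.42 to 9.40 against 11.51 to 11.87 in bone marrow. Slc4a8, a bicarbonate transporter, had an interaction of 1.99, with -2.67 ± 0.20 in bone marrow and -0.68 ± 0.20 in fetal liver.

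In the opposite direction stood Pdzph1 (-1.80), P2ry2 (-1.23) and Tent5b (-0.89), called lower in fetal liver ST-HSC, and Sema7a (-1.48), Sec14l2 (-1.47), Aldh1a1 (-1.41), D630039A03Rik (-1.22) and 9230009I02Rik (-0.96), called higher in bone marrow ST-HSC and not called in fetal liver. Of the 18, Cdh5, Igf2, Klrb1c, Rasgrp3, Selp, Slc4a8 and Stxbp6 were called in each of the 12 fits without 1 array, Jchain in 5, Sec14l2 in 3, Aldh1a1, D630039A03Rik and Pdzph1 in 2, and Dntt, P2ry2, Pdzk1ip1, Sema7a, Tent5b and 9230009I02Rik in 1. None of the 18 passed without the sgEzh2 arrays.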

How the results depend on the processing

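With 441 genes called between ST-HSC and MPP of the fetal liver, median centring gave 452 and a new quantile normalization 444. Averaging probe sets gave 441, a filter on the lowest 30% of mean signals 464, and eBayes with trend and robust estimation 468. Array weights gave 1751, of which 55.1% were higher against 70.1% of the 441, a fit of the 6 arrays 963, a fit of the 9 fetal liver arrays 710, leaving out the 4 narrow arrays, none of which is among the 6, 1268 (63.5% higher), and the call with at least 2-fold 203. Without the sgEzh2 arrays 33 were called (1027 at an unadjusted p under 0.05), without ST-HSC b and c 83, and without 1 array 215 to 375. For the interaction, with 36 calls, the same settings in this order gave 33, 33, 36, 47 and 49, array weights 3772, leaving out the narrow arrays 94 and at least 2-fold 32. Without the sgEzh2 arrays 0 were called by limma (1013 at an unadjusted p under 0.05), and without 1 array 11 to 384, the highest without bone marrow ST-HSC a and otherwise at most 19. Among the named genes and named interactions, the values refitted gene by gene, no called value reversed under these settings. The cause of these shifts was not tested. Of 128 named genes called and followed gene by gene, 70 were called in each of the 6 fits without 1 array.

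The replicate block, the letters a, b and c as a fixed block within each organ, gave 385 calls (284 higher, 101 lower) and 19 in the interaction. Arrays of the same letter in ST-HSC and MPP did not deviate together (correlations of -0.10, -0.12 and -0.04). Arrays of different letters gave -0.01 to 0.098. With so few arrays in each group, these correlations cannot decide whether the letters mark pairs. The number of arrays limits the precision, and the files hold no signal over background.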

Other observations

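Some gene groups were noticed among the called genes after their values were seen, and their counts are no evidence of a group effect. Of 18 measured circadian clock genes, 3 rose and 2 fell, against 1.58% and 0.677% of all genes. Arntl, the partner of Clock, read 8.18, 8.41 and 8.21 in ST-HSC and 6.84, 6.89 and 6.66 in MPP (1.47 ± 0.16, adjusted p = 3.61e-05). Rora, which activates Arntl, read 7.98, 8.89 and 8.31 against 6.93, 7.0 and 6.72 (1.51 ± 0.27), and Hlf was the third. The repressors Nfil3 (8.27, 8.89 and 8.40 against 9.50, 9.56 and 9.55; -1.02 ± 0.20) and Nr1d1 (7.80, 7.87 and 7.89 against 8.57, 8.54 and 8.12; -0.56 ± 0.14) were lower. Clock (0.19), Per1 (0.23), Per2 (-0.16), Cry1 (-0.44) and Dbp (0.19) did not pass. The calls of Arntl and Rora held in all 6 fits without 1 array, that of Nfil3 in 4 (not without ST-HSC a or ST-HSC c) and that of Nr1d1 in 1, without MPP c. The time of day of the dissections is not stated.

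Of 14 chaperone genes of the endoplasmic reticulum, 4 were lower in ST-HSC, Hspa5 (-0.65 ± 0.16), Sdf2l1 (-0.61 ± 0.15), Calr (-0.54 ± 0.13) and Mlec (-0.41 ± 0.11), and 1 was higher, Dnajb9 (0.60 ± 0.14). Each of these 5 was called in 0 to 2 of the 6 fits without 1 array. Among all genes 0.677% were lower and 1.58% higher. Hspa5 read 10.32, 10.94 and 10.31 in ST-HSC and 11.25, 10.98 and 11.28 in MPP, with ST-HSC b near the MPP range.

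Transcription regulators outside the lists were higher in ST-HSC: Runx1t1 (7.46, 7.97 and 8.07 against 6.13, 6.16 and 6.55; 1.55 ± 0.27), Setbp1 (9.61, 9.65 and 9.79 against 8.21, 8.26 and 8.15; 1.47 ± 0.15), Dach1 (8.21, 8.30 and 8.26 against 6.94, 7.02 and 7.11; 1.23 ± 0.22) and Meis2 (7.48, 8.28 and 7.81 against 6.74, 6.69 and 6.65; 1.16 ± 0.22). Trem1, an amplifying receptor of neutrophils and monocytes (-1.54 ± 0.28), Cd69, an early activation antigen (-1.49 ± 0.23), and Hpgds, a prostaglandin synthase of mast cells (-1.19 ± 0.21), were lower. The calls of all 7 held in the 6 fits without 1 array. The X-linked Xlr4a (-0.88 ± 0.16), Xlr4b (-0.87 ± 0.16) and Xlr4c (-0.69 ± 0.16) were also lower in ST-HSC; they are close copies whose probes may be shared, so they are not 3 independent results.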
